A study of Mus musculus with 16 samples.

Results

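A group of 8 genes of red blood cell development were followed through 16 arrays of mouse intervertebral disc: Gata1, Klf1, Alas2, Slc4a1, Epb42, Rhag, Ermap and Dmtn. They were taken by name, with earlier results of these data known, as 8 of the 19505 genes that carry a symbol on the array. Each is read by 1 probe set. The arrays hold RNA of the annulus fibrosus (AF), the fibrous outer ring of the disc, and of the nucleus pulposus (NP), the gel-like core, from 8 female mice aged 3 to 4 months. The 4 conditional knockout mice (cKO, AcanCreERT2 Sox9fl/fl) carry floxed Sox9 alleles and a Cre that the aggrecan gene drives in cartilage-like cells and that tamoxifen switches on. The 4 control mice (CTR, Sox9fl/fl) carry the same floxed alleles, and no Cre is named for them. Tissue was collected 5 days after the first tamoxifen injection, which the labels give for cKO mice; whether CTR mice were injected is not stated, so drug and genotype cannot be told apart. Each mouse gave 1 AF and 1 NP array, from lumbar and caudal discs pooled within the animal, so the groups AF cKO, AF CTR, NP cKO and NP CTR hold 4 arrays each. No label describes marrow or blood as part of a sample.

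Red blood cells are made in the marrow of adult mice, and marrow fills bone near the disc. Erythroid progenitors are driven by the transcription factors GATA1 and KLF1, take up iron, build haem from a first step that ALAS2 catalyses, and assemble a membrane held up by a spectrin and actin skeleton before they lose their nucleus. In that membrane the anion exchanger band 3 (Slc4a1), protein 4.2 (Epb42) and the Rh-associated glycoprotein (Rhag) sit in complexes that anchor the skeleton, and dematin (Dmtn) bundles actin at its junctions. The NP has no vessels, the AF has them only in its outermost layers, and marrow-filled bone lies above and below the disc.

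All values are log2 signals, on which 1 unit is a doubling, and the number of arrays limits their precision. The negative control probe sets had medians of 6.14 to 6.59 on the arrays, and a signal under 6.59 is called here at background. A gene was called when its adjusted p in the limma fit over 22206 probe sets was under 0.05. In bulk tissue, fewer cells of a type and less RNA per cell cannot be told apart. Sox9 averaged 12.24 ± 0.65 in AF cKO and 16.92 ± 0.51 in AF CTR, and 9.75 ± 0.25 in NP cKO and 16.27 ± 0.36 in NP CTR (SD, n = 4 arrays each), so it was lower in cKO arrays of both tissues. Of 10 AF and tendon markers, 10 were called higher in AF than NP in cKO mice and 9 in CTR mice, against 12.6% and 10.1% of all probe sets. Among 9 NP and notochord markers, 5 in cKO mice and 4 in CTR mice were called lower in AF than NP. Over all 22206 probe sets, 2954 and 2211 were called lower. Krt8, Krt18, Krt19 and Cd24a were called in both, and Foxa2 went the other way in both. Osteoblast markers were called higher in AF for 8 of 8 genes in either genotype, against the same 12.6% and 10.1%. Among them were the osteocalcin genes Bglap and Bglap2, and also Col1a1, which AF cells make.

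In the AF, the erythroid genes lay higher in cKO than in CTR mice by their means in 8 of 8 cases, and 1 of them, Dmtn, was called. The changes of Alas2, Slc4a1, Rhag, Epb42 and Ermap were between 0.91 and 1.46 log2 units but came with a wide spread between animals and did not pass. Without AF cKO 3 they were smaller by over 1.5 times in 4 cases: Ermap at 0.44, Rhag at 0.65, Epb42 at 0.68 and Slc4a1 at 0.97. The AF CTR means of Rhag and Epb42 were at background, and the AF cKO mean of Epb42, 6.61, lay just above it. Neither change was called, so their sizes are not settled. For Ermap the means of both groups were at background. Gata1 and Klf1, the transcription factors, differed by 0.17 and 0.23. In the NP no member was called and the changes lay between -0.08 and 0.35. The question behind these comparisons is what loss of Sox9 changes in each compartment of the disc, and for these genes the markers of marrow and blood on each array are given beside it.

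Of the 8 members, 6 matched the RefSeq promoter table of GRCm38.p6; 3 promoters are shown as the stretch of 250 bases before the start, on the gene's strand, because Alas2 had the largest AF change of the 8, Gata1 the smallest and Rhag one between, and they hold different matches to binding motifs of the erythroid factors. Capitals mark 2 motifs searched on both strands: the GATA motif, AGATAA or AGATAG or TGATAA or TGATAG, and the KLF motif, CCNCNCCC. The choice was made after the values were seen.
Alas2 (chrX:150547167-150547416, plus strand): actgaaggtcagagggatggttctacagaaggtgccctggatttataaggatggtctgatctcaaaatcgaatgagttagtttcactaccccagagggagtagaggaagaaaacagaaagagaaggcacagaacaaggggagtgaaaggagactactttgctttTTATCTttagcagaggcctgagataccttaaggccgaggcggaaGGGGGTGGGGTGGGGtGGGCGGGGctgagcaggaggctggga
Rhag (chr17:40810899-40811148, plus strand): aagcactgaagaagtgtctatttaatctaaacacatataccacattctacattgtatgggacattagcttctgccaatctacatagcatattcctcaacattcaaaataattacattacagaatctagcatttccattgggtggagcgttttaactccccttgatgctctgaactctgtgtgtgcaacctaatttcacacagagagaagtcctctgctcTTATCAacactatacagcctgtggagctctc
Gata1 (chrX:7967911-7968160, minus strand): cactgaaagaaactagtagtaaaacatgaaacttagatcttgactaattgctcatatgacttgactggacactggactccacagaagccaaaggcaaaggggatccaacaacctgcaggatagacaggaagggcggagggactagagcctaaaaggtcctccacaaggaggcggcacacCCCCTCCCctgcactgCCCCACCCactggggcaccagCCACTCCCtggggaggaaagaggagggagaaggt

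The sequences differ in which motif they hold. In Alas2 the GATA match is at -86 relative to the start, and 4 KLF matches lie at -42, -40, -35 and -26, some of which overlap. Rhag has 1 GATA match, at -31, and no KLF match. Gata1 holds 3 KLF matches, at -71, -55 and -34, and no GATA match in this window. The windows of Klf1, Epb42 and Ermap hold 1 GATA match each, at -80, -226 and -67. Over 32851 promoters of this length in the table, 26.5% hold the GATA motif, 45.9% the KLF motif and 8.19% both, so matches of this kind are common. A match is a run of letters and no evidence of binding here.

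**Figure D1:**
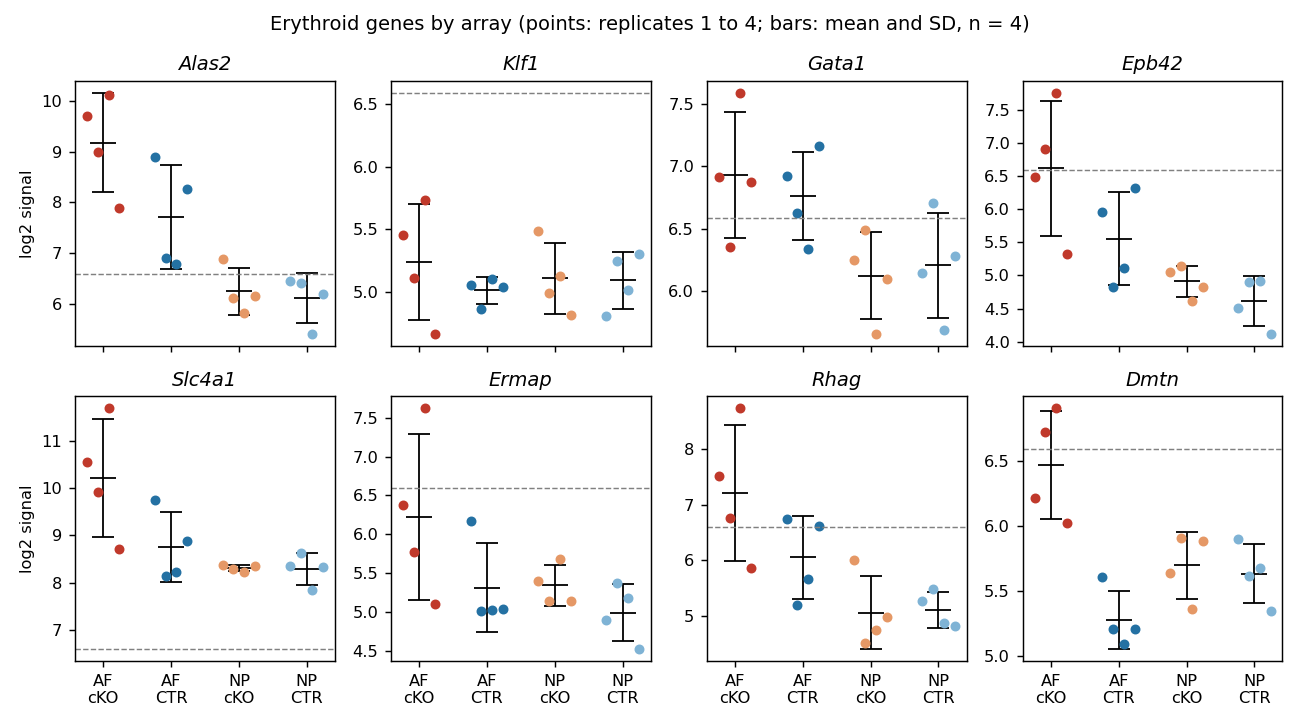
Log2 signal of each of the 8 genes on each array (points, replicates 1 to 4 from left to right within a group), with the group mean and SD (bars, n = 4). The dashed line is the background of 6.59; the AF cKO points spread widely, AF cKO 3 is highest of the 16 arrays for each gene, and Dmtn has every AF cKO point above every AF CTR point.

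Alas2 encodes the erythroid form of the enzyme that starts haem synthesis. Its signal was 9.71, 8.99, 10.12 and 7.90 in AF cKO replicates 1 to 4, against 8.88, 6.91, 6.796 and 8.27 in AF CTR replicates 1 to 4. The groups overlapped: AF cKO 4 was lower than AF CTR 1 and 4, and AF CTR 2 and 3 lay just above background. The means were 9.18 ± 0.97 and 7.71 ± 1.03, a change of 1.46 (SE 0.47) or 2.76-fold, with an adjusted p of 0.278. In the NP it was 6.89, 6.12, 5.82 and 6.16 in cKO and 6.45, 6.42, 5.41 and 6.21 in CTR, and 1 of the 8 arrays, NP cKO 1, stood above background.

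Slc4a1 encodes band 3, the anion exchanger that carries chloride and bicarbonate across the red cell membrane. AF cKO arrays had 10.54, 9.92, 11.68 and 8.71, against 9.75, 8.13, 8.23 and 8.88 on AF CTR arrays. AF CTR 1 stood close to AF cKO 2, and AF cKO 4 lay among the controls. The change was 1.46 (SE 0.45) or 2.76-fold, adjusted p = 0.257. All 8 NP arrays lay above background and close together, at 8.37, 8.28, 8.23 and 8.35 in NP cKO and 8.36, 8.64, 7.84 and 8.33 in NP CTR, and AF CTR 2 and 3 lay within the range of the NP arrays.

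Rhag encodes a membrane glycoprotein of the Rh complex that carries ammonia. It measured 7.51, 6.75, 8.73 and 5.85 in AF cKO, against 6.74, 5.19, 5.66 and 6.61 in AF CTR, a change of 1.16 (SE 0.48, adjusted p = 0.411). The same cKO animal, number 4, was lowest, and AF CTR 1 and 4 were above background while AF CTR 2 and 3 were not. In the NP every array was at background, with 6.01, 4.51, 4.74 and 4.97 in cKO and 5.26, 5.48, 4.87 and 4.81 in CTR.

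Epb42, protein 4.2, binds band 3 to the skeleton below it. Its signal was 6.48, 6.91, 7.75 and 5.32 in AF cKO, against 5.96, 4.82, 5.12 and 6.32 in AF CTR. AF cKO 2 and 3 were the 2 arrays of the 16 above background, and AF cKO 4 lay below AF CTR 1 and 4. The change was 1.06 (SE 0.40, adjusted p = 0.370). NP arrays ran from 4.61 to 5.14 in cKO and from 4.12 to 4.91 in CTR, under the background throughout.

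Ermap encodes an erythroblast membrane protein of the immunoglobulin superfamily. AF cKO arrays had 6.38, 5.78, 7.62 and 5.10, against 6.17, 5.01, 5.03 and 5.04 on AF CTR arrays. AF cKO 3 alone was above background, and AF CTR 1 stood apart above the other control arrays. The change was 0.91 (SE 0.40, adjusted p = 0.437). The NP arrays lay between 5.13 and 5.68 in cKO and between 4.51 and 5.36 in CTR.

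Gata1, the factor that drives red cell, megakaryocyte and eosinophil genes, measured 6.91, 6.36, 7.59 and 6.88 in AF cKO, against 6.92, 6.63, 6.34 and 7.16 in AF CTR. The groups were interleaved, and each had 3 of 4 arrays above background. Its change was 0.17 (SE 0.28, adjusted p = 0.861). In the NP it had 6.25, 6.49, 5.66 and 6.10 in cKO and 6.15, 6.71, 5.69 and 6.28 in CTR, with NP CTR 2 alone above background. Klf1, a factor that activates adult globin and other late erythroid genes, had 5.45, 5.11, 5.73 and 4.66 in AF cKO, against 5.05, 4.86, 5.10 and 5.03 in AF CTR, all at background, with a change of 0.23 (SE 0.22, adjusted p = 0.747). No array of any group put Klf1 above background, so these values set no level for it, and the NP arrays ran from 4.81 to 5.49 in cKO and from 4.80 to 5.30 in CTR.

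Dmtn, the actin-bundling protein dematin, is made in red cells and, unlike most of the others, in several other tissues including brain and platelets. It measured 6.22, 6.73, 6.91 and 6.02 in AF cKO, against 5.61, 5.20, 5.09 and 5.21 in AF CTR. Every cKO array lay above every CTR array, and AF cKO 2 and 3 were the ones above background. The means of 6.47 ± 0.42 and 5.28 ± 0.23 gave a change of 1.19 (SE 0.22), with an adjusted p of 0.0384. Both means are below 6.59, so the change is one between dim signals. In the NP it had 5.64, 5.91, 5.36 and 5.88 in cKO and 5.90, 5.61, 5.67 and 5.34 in CTR, all at background and interleaved, and all of them below the lowest AF cKO array. Dmtn was 1 of 8 members called, against 0.0991% of all probe sets in either direction (22 of 22206) and 0.0135% called higher (3 of 22206), and it was the single member whose groups did not overlap, against 1.79% of all probe sets. A total of 6 members had an unadjusted p under 0.05, against 4.94% of probe sets that were higher at that cut. The same 6 passed the thresholds the labels name (p under 0.05 and at least 1.75-fold), against 2.05%. These 6 genes vary together between arrays and are not independent. The 8 members were also chosen with earlier results of these data known, so setting their counts beside these shares is description and no test. The Dmtn call was lost when AF cKO replicate 1, 2 or 3 or AF CTR replicate 2, 3 or 4 was left out (adjusted p up to 0.206) and in a fit of the 8 AF arrays alone (adjusted p = 0.310).

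**Figure D2:**
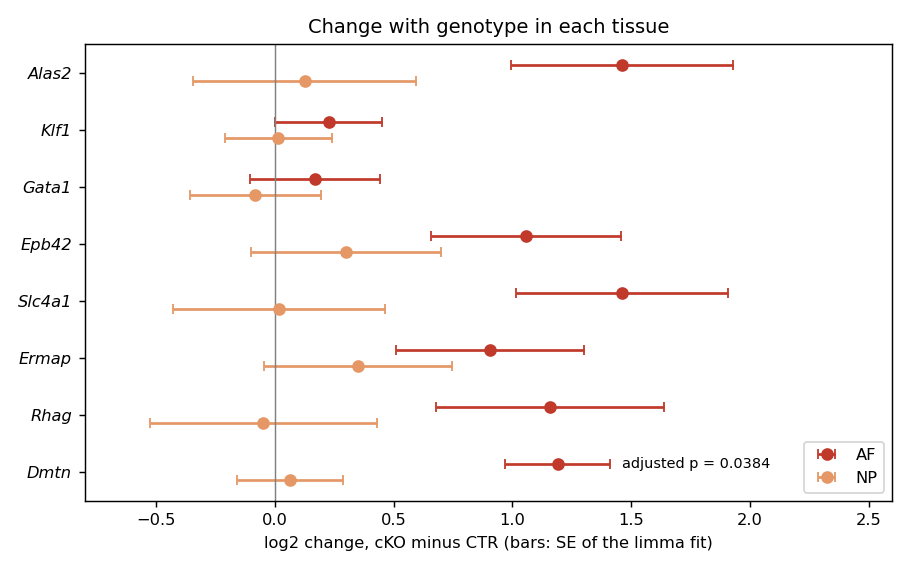
Log2 change of each gene, cKO minus CTR, in AF (red) and NP (orange), with the SE of the limma fit as bars. Changes in AF are above 0 for each gene, from 0.17 for Gata1 to 1.46 for Alas2, and those in NP lie between -0.08 and 0.35; Dmtn in AF carries the adjusted p of 0.0384.

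The 8 genes varied together over the arrays to different degrees. Mean signal over the 8 was 7.40, 7.07, 8.27 and 6.30 on AF cKO arrays 1 to 4, against 6.89, 5.85, 5.92 and 6.57 on AF CTR arrays. The lowest cKO array thus lay below 2 of the control arrays. In the NP this mean ran from 5.65 to 6.14 in cKO and from 5.57 to 6.04 in CTR. The correlation of each gene with the mean of the other members, Dmtn left out of that mean, was 0.972 for Rhag, 0.964 for Slc4a1, 0.935 for Alas2, 0.925 for Epb42, 0.839 for Ermap, 0.757 for Gata1, 0.665 for Dmtn and 0.552 for Klf1 over the 16 arrays. These are descriptions over arrays that share tissue and animals, and within the 8 NP arrays they ran from 0.108 for Dmtn to 0.705 for Alas2. Within the 8 AF arrays they ran from 0.654 for Gata1 and 0.793 for Dmtn to 0.989 for Rhag. AF CTR 1 and 4, whose mean of the 7 others lay above that of AF cKO 4, had Dmtn signals of 5.61 and 5.21, under each of the 4 AF cKO arrays. These signals and the 6.02 of AF cKO 4 were all at background, and what the Dmtn signals owe to marrow or blood was not tested.

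**Figure D3:**
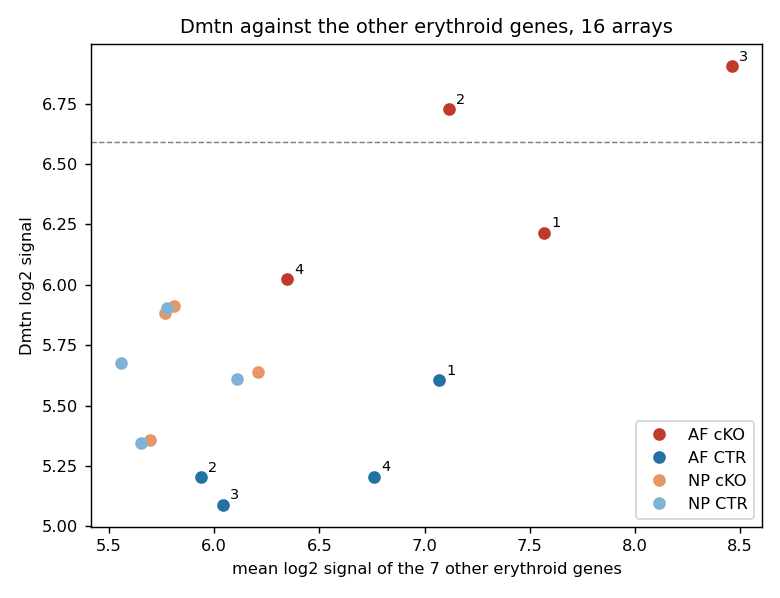
Dmtn log2 signal on each array (vertical axis) against the mean log2 signal of the 7 other genes (horizontal axis), with colours for the 4 groups and replicate numbers on the AF arrays. The 4 AF cKO points, from 6.02 to 6.91 in Dmtn, lie above the 4 AF CTR points, from 5.09 to 5.61. AF cKO 4 lies left of AF CTR 1 and 4. Only AF cKO 2 and 3 are above the background of 6.59 in Dmtn.

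The genes whose pattern was most like that of Dmtn differed from those most like the other members. By Pearson's r over the 16 arrays, the first for Dmtn were H2az1, a histone variant (0.885), the histone gene H2bc11 (0.880), Coro1a, an actin-binding protein of leukocytes (0.871), and Car2, a carbonic anhydrase of red cells and osteoclasts (0.864). For the mean of the 7 other genes, the most like were Clec12a, a receptor of myeloid cells (0.962), Add2, the beta-adducin of the red cell skeleton (0.957), Atp8b4 (0.952), Ceacam1 (0.949) and Fcgr3, an Fc receptor of myeloid cells (0.948), and Itgam, an integrin of neutrophils and macrophages (0.942), was among the first 10. These values order genes over arrays that share animals and tissue and say nothing of shared function.

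In the AF against NP comparison, most members were higher in AF, and in cKO mice more of them passed the test than in CTR mice; whether the comparisons differ is what the difference of the genotype changes tests, and there no member was called. In cKO mice 6 of 8 members were called higher in AF than in NP, against 12.6% of all probe sets called higher and 25.9% called in either direction. Alas2 was higher by 2.93 (SE 0.47, adjusted p = 2.33e-04), Rhag by 2.15 (adjusted p = 0.00336), Slc4a1 by 1.91 (adjusted p = 0.00467), Epb42 by 1.70 (adjusted p = 0.00470), Gata1 by 0.81 (adjusted p = 0.0380) and Dmtn by 0.77 (adjusted p = 0.0161). Ermap at 0.88 (adjusted p = 0.108) and Klf1 at 0.13 (adjusted p = 0.694) were not called, although without AF cKO 4 Ermap was, at 1.25 (adjusted p = 0.0195), and without AF cKO 3 it was 0.41. For 4 members, Alas2, Epb42, Slc4a1 and Dmtn, every AF cKO array lay above every NP cKO array, against 12.5% of all probe sets. The NP means of Alas2, Rhag, Epb42 and Gata1 were at background, so the sizes of their differences are not settled. For Dmtn, Ermap and Klf1 the means of both tissues were at background. The Gata1 call was lost on leaving out single arrays (adjusted p up to 0.143), and the Dmtn call without AF cKO 2, AF cKO 3 or NP cKO 3 (up to 0.0664).

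In CTR mice 1 of 8, Alas2, was called, higher in AF by 1.59 (SE 0.47, adjusted p = 0.0211), against 10.1% of probe sets called higher and 20.1% in either direction. Its 4 AF CTR arrays lay above its 4 NP CTR arrays, 1 member of 8 against 11.2% of probe sets. This share is close to the background, and the call was lost without AF CTR 1, AF CTR 4 or NP CTR 3 (adjusted p 0.0815, 0.0628 and 0.0653). The Alas2 mean in NP CTR was at background, so the size of its difference is not settled. Gata1, Epb42 and Rhag differed by 0.55, 0.95 and 0.95, Slc4a1 by 0.46 and Ermap by 0.32, with adjusted p of 0.105 to 0.612, Klf1 by -0.08 and Dmtn by -0.36 (adjusted p = 0.278). The Gata1 mean in NP CTR was at background too and its difference was not called, so the size of that difference is not settled. For Epb42, Rhag, Ermap, Klf1 and Dmtn the means of both tissues were at background. Dmtn alone of the 8 passed for AF above NP in cKO mice with a control difference below 0. Set to 1 median on each array, the control comparison gave 1769 higher among 5062 calls, against 2251 of 4462 as deposited, and that of cKO mice 2440 of 6169, against 2800 of 5754.

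Order over the 4 groups was AF cKO, AF CTR, NP cKO, NP CTR for Alas2, Slc4a1 and Epb42. For Alas2 it was 9.18 ± 0.97, 7.71 ± 1.03, 6.25 ± 0.46 and 6.12 ± 0.49, in which AF CTR and NP CTR differed and the neighbours AF cKO and AF CTR, and NP cKO and NP CTR, did not pass. For Slc4a1 it was 10.21 ± 1.24, 8.75 ± 0.74, 8.31 ± 0.06 and 8.29 ± 0.33, with neither genotype comparison passing. For Dmtn it was AF cKO at 6.47 ± 0.42, NP cKO at 5.70 ± 0.26, NP CTR at 5.63 ± 0.23 and AF CTR at 5.28 ± 0.23, and here the neighbours AF cKO and NP cKO passed, but all 4 means lie below 6.59 and the order is one of signals at background.

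In the NP, cKO minus CTR gave 0.13 for Alas2, 0.02 for Klf1, -0.08 for Gata1, 0.30 for Epb42, 0.02 for Slc4a1, 0.35 for Ermap, -0.05 for Rhag and 0.06 for Dmtn, each with an adjusted p that rounds to 1. No member was called by limma, 0 of 8 had an unadjusted p under 0.05, and no member had groups that did not overlap, against 0.122% of probe sets called (27 of 22206) and 1.11% whose cKO arrays all lay higher. The difference of the genotype changes, AF minus NP, was 1.44 for Slc4a1 (unadjusted p = 0.0339), 1.34 for Alas2 (0.0580), 1.21 for Rhag, 1.13 for Dmtn (SE 0.31, unadjusted p = 0.00195), 0.76 for Epb42, 0.56 for Ermap, 0.25 for Gata1 and 0.21 for Klf1. With limma 0 of 8 members and 0% of all 22206 probe sets were called in it, 2 members and 1496 probe sets had an unadjusted p under 0.05, and the adjusted p of Dmtn was 0.732.

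The wider erythroid programme had mostly positive changes in AF, of which that of Dmtn was called. The lists named here include members: Alas2 for haem synthesis, 5 for the membrane, and Gata1 and Klf1 for transcription factors. Of 12 measured haem synthesis genes, 12 had a positive change (median 0.37) and 0 were called; Fech, which inserts iron, changed by 0.84 (SE 0.28, adjusted p = 0.314) and Cpox, a late enzyme of the path, by 0.78 (SE 0.29, adjusted p = 0.353). Of 24 genes of the membrane and skeleton, 21 were higher (median 0.48) and 1, Dmtn itself, was called; Mpp1, a palmitoylated skeleton protein, changed by 0.90 (SE 0.27, adjusted p = 0.258), Aqp1, the water channel of red cells and vessels, by 1.12 (SE 0.50, adjusted p = 0.444) and Add2 by 0.66 (SE 0.21, adjusted p = 0.274). Of 19 erythroid transcription factors, 17 were higher (median 0.39) and 0 were called. Of 29 genes of erythropoietin signalling, iron uptake and the late erythroblast, 23 were higher (median 0.29) and 0 were called. Over all probe sets the median was -0.03 and 0.0135% were called higher.

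Car2 had the largest of these changes. Its signal was 11.75, 11.01, 13.87 and 9.05 in AF cKO, against 10.03, 8.68, 7.20 and 8.54 in AF CTR, a change of 2.80 (SE 0.70, adjusted p = 0.162), and the groups overlapped at AF cKO 4 and AF CTR 1. Car1, the related carbonic anhydrase of red cells, had 10.34, 10.45, 12.38 and 9.96 in AF cKO and 9.70, 8.58, 9.49 and 8.54 in AF CTR. Its groups did not overlap, and its change of 1.71 (SE 0.43, adjusted p = 0.168) did not pass. Both genes were above background in the NP too. Car2 averaged 8.96 in NP cKO and 9.02 in NP CTR, above its AF CTR mean of 8.61. Car1 averaged 9.31 and 10.27 there, above its AF CTR mean of 9.08. The NP change of Car1 was -0.95 (SE 0.43) and was not called. Myb, a factor of marrow progenitors, had 9.13 on AF cKO 3 and 6.32, 5.97 and 5.25 on the other cKO arrays, against 4.74 to 6.18 in AF CTR. Globin genes gave no signal above background to set beside these. Of 12 listed globin and globin chaperone genes 5 were measured: Hbb-bh1, Hbb-y, Hba-x, Hbq1a and Hbq1b. Their means over the 5 ran from 4.35 to 5.07 on AF arrays, all at background. Hbq1b was called higher in AF than NP by limma, by 0.74 (adjusted p = 0.0159) in cKO mice and 0.76 (adjusted p = 0.0164) in CTR mice, with all its group means at background. The adult Hba-a1 and Hbb-bs were not analysed here.

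Markers of other marrow and bone cells were high on many of the arrays where the erythroid genes were high, and their part in the changes was not tested. For neutrophil and marrow myeloid genes, 19 of 19 had positive AF changes (median 2.62) with 0 called, and the mean over the list was 10.30, 10.18, 11.68 and 8.29 on AF cKO arrays, against 10.21, 7.25, 6.08 and 6.91 on AF CTR arrays. AF CTR 1 stood with the cKO arrays and AF cKO 4 below them. Retnlg, a resistin-like protein of neutrophils, had 14.33, 13.02, 13.77 and 11.23 in AF cKO, against 12.89, 8.81, 6.87 and 7.83 in AF CTR, a change of 3.99 (SE 0.96, adjusted p = 0.147), and Camp, cathelicidin, changed by 2.33 (SE 0.53, adjusted p = 0.125). Of the 19, 16 were called higher in AF than NP in cKO mice, against 12.6% of all probe sets, and 3 in CTR mice, near the 10.1% of all probe sets. B cell markers had means of 5.33 to 5.82 on AF cKO and 5.41 to 5.76 on AF CTR arrays, at background, with 5 higher and 8 lower of 13. The means of 15 megakaryocyte and platelet genes averaged 6.99 ± 0.69 in AF cKO and 6.60 ± 0.30 in AF CTR (SD, n = 4 arrays each), and 13 of them had positive changes with 0 called.

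**Figure D4:**
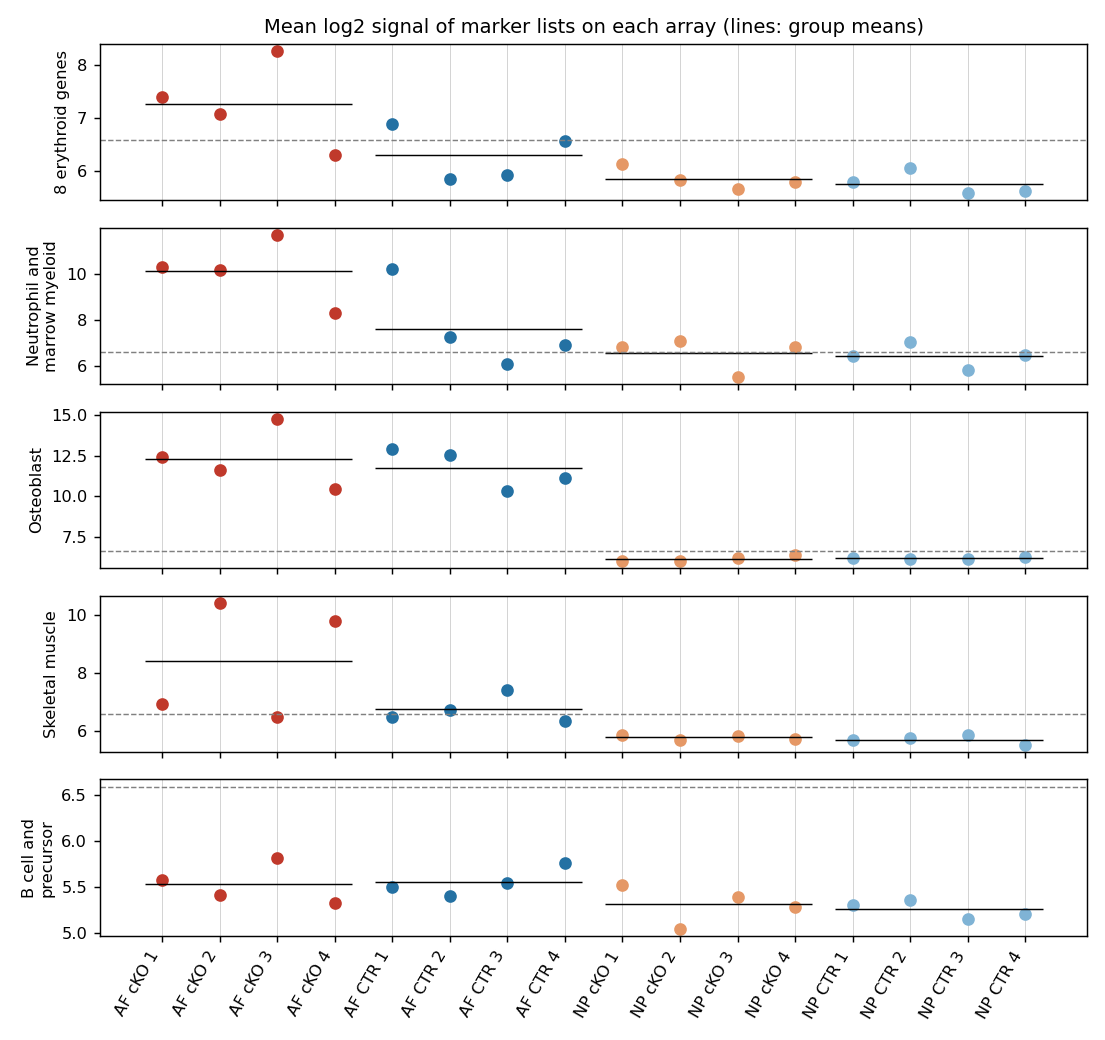
Mean log2 signal on each array of the 8 erythroid genes and of 4 marker lists (points), with group means as lines and the background of 6.59 dashed. AF cKO 3 is highest in the erythroid, neutrophil and osteoblast rows, AF CTR 1 stands with the cKO arrays for neutrophil genes at 10.21, and muscle genes are high on AF cKO 2 and 4 at 10.44 and 9.80.

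Osteoblast markers were 12.44, 11.59, 14.77 and 10.45 in AF cKO, against 12.89, 12.55, 10.29 and 11.11 in AF CTR, with 6 of 8 changes positive and 0 called. AF cKO 3, the array with the highest erythroid signal, had the highest mean here too, and AF cKO 4, the lowest of the cKO arrays in erythroid signal, was the lowest of them here. The control arrays did not keep one order. AF CTR 2, the lowest AF array in mean erythroid signal at 5.85, lay above AF cKO 1 and 2 here, and AF CTR 3, at 5.92, was the lowest here. In the NP arrays the osteoblast means were 5.99 to 6.36 in cKO and 6.09 to 6.22 in CTR, at background, and the neutrophil means were 5.51 to 7.07 and 5.82 to 7.04. Skeletal muscle markers had another order among the cKO arrays. AF cKO 2 and 4 had means of 10.44 and 9.80 and AF cKO 1 and 3 of 6.93 and 6.48, against 6.35 to 7.40 in AF CTR. For 15 of 15 muscle genes the AF change was positive (median 1.81), with 0 called. In cKO mice 13 of the 15 were called higher in AF than NP and in CTR mice 1, against 12.6% and 10.1% of all probe sets. Without AF cKO 2 and 4 the change of Slc4a1 was 2.36 (adjusted p = 0.0180) and was called, and that of Dmtn was 1.28 (adjusted p = 0.0613). AF cKO 4 and 2 were the lowest and next lowest cKO arrays for Slc4a1, at 8.71 and 9.92. Leaving them out had to raise its change, so that call is no support. Without AF CTR 1 and AF cKO 3, the arrays with the highest neutrophil signal in their groups, Dmtn changed by 1.15 (adjusted p = 0.0359) and was the 1 member called. These arrays were also the highest of their groups for Dmtn, at 5.61 and 6.91, so the kept call is no separate support. Both pairs were chosen with earlier results of these data known.

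Between AF and NP, 12.6% of all probe sets were called higher in AF in cKO mice and 10.1% in CTR mice, and the counts for the wider erythroid lists stand against these. In cKO mice 6 of 12 haem synthesis genes were called higher in AF, Alas2, Alad, Cpox, Fech, Abcb10 and Tmem14c, against 3 in CTR mice, Alas2, Alad and Abcb10, where Ppox was called lower in AF (-1.04, adjusted p = 0.00639). Of 24 membrane and skeleton genes, 12 were called higher in AF in cKO mice and 4 in CTR mice, with 3 called lower in each. Sptb, the spectrin beta chain of red cells, which muscle also makes, was called higher in both, by 1.80 (SE 0.36) and 1.82 (SE 0.36). Of 19 transcription factors 4 were called higher in cKO mice, Gata1, Myb, Cbfa2t3 and E2f2, and 1 in CTR mice, Cbfa2t3, a share below that of all probe sets. Of 29 genes of erythropoietin signalling, iron uptake and the late erythroblast, 10 were called higher and 2 lower in AF in cKO mice, and 5 higher and 5 lower in CTR mice. Whether cKO and CTR differ in these counts was not tested beyond the difference of the changes, in which no gene of these lists was called.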

How the data were processed

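RNA of 16 AF and NP samples was measured on 1-colour Affymetrix arrays. The authors normalized them by sst-RMA, per the labels, and deposited 1 log2 value for each probe set and array. Transcriptome Analysis Console is named, without a version, per the submitters' processing notes. The genome build of the array annotation is not stated in these sources. Control probe sets (6640 of 28846) were left out, and no further normalization was made.

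A model of 4 group means was fitted to 22206 probe sets in limma 3.58.1 (R 4.3.3), with Benjamini-Hochberg adjustment and calls at an adjusted p under 0.05. The fit was tested on simulated data with known changes. Where a gene has several probe sets, the one with the highest mean is used. The 8 members and the 18 marker lists (234 of 264 genes measured) were chosen with earlier results of these data known, as were the arrays left out in pairs. Alternatives were array weights, leaving out dim probe sets, median centring, fitting the 8 arrays compared alone, quantile normalization, keeping 1 probe set for each gene, replicate blocks, a trend with intensity, leaving out arrays and the labels' thresholds. The genes named were drawn from the members, Sox9, globins, up to 4 genes per list with the smallest p in the AF comparison, list genes called in any comparison, and the 10 most like Dmtn or the other members. Not every such gene is named. The endothelial, macrophage and osteoclast lists, some of whose genes were called between AF and NP, are not described.

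AF and NP arrays with 1 animal code in their titles come from 1 mouse. Their deviations correlated with r from -0.293 to 0.348, and the animal as a random block had a consensus correlation of 0.0353. The replicate numbers of cKO and CTR mice are only numbers. Nothing in the labels says that the mice come from separate litters.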

Additional observations from a re-analysis of the deposited data

Results flagged for a closer look

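A single result stood out for a closer look. Ermap in AF CTR had 6.17 on AF CTR 1, while the other control arrays had 5.01, 5.03 and 5.04, a gap of 0.975 of the group's range, above Dixon's critical value. Of 32 groups of 4 arrays checked in this way, 1 was so marked, and chance marks about 1 in 20. AF CTR 1 also had the highest neutrophil list mean of the AF CTR arrays, 10.21, and the highest Slc4a1 signal of its group, 9.75. Without that array the Ermap change in AF was 1.19 on the log2 scale (adjusted p = 0.242).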

How the results depend on the processing

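For AF cKO minus AF CTR, 1 member was called. The count was 0 with the dim filter, which leaves Dmtn untested, 0 with only the 8 AF arrays, 0 with the replicate number as a fixed replicate block (Dmtn adjusted p = 0.0678), and 6 at the thresholds of the labels, which use unadjusted p. Leaving out single arrays gave 0 to 2. Dmtn kept a change of 1.05 to 1.34 (adjusted p 0.0137 to 0.206); without AF cKO 4, Slc4a1 (1.96, adjusted p = 0.0286) was called too. On leaving out arrays Ermap ranged from 0.44 to 1.28, Rhag from 0.65 to 1.61, Epb42 from 0.68 to 1.49 and Alas2 from 1.15 to 1.89. The animal as a random replicate block changed no count of members called in any of the 5 comparisons. For AF minus NP in CTR, 1 was called, 2 at the labels' thresholds, 0 without AF CTR 1 and AF cKO 3, and 0 to 1 without single arrays. For AF minus NP in cKO, 6 were called, and 2 with the dim filter, which leaves 2 members. Ermap ranged from 0.41 to 1.25 there on leaving out arrays (adjusted p 0.0195 to 0.402). For the difference of changes, 0 were called, and 2 at the labels' thresholds. Over all probe sets, AF calls were 22, against 37 with quantile normalization, 8 with the AF arrays alone, 112 without AF CTR 1 and AF cKO 3, 34 without AF cKO 2 and 4 and 774 at the labels' thresholds; leaving out AF CTR 1, AF cKO 4 or AF CTR 3 gave 142, 112 and 58, and AF cKO 1 or 2 gave 12 each. Signs turned for small changes: AF Gata1 ranged from -0.048 to 0.36 on leaving out arrays, and Klf1 in AF minus NP of cKO from -0.032 to 0.33 (-0.032 without AF CTR 1 and AF cKO 3). In the NP on leaving out arrays, Alas2 ranged from -0.11 to 0.27, Klf1 from -0.11 to 0.11, Gata1 from -0.25 to 0.084, Slc4a1 from -0.13 to 0.13, Rhag from -0.36 to 0.14 and Dmtn from -0.032 to 0.18. There Klf1 was -0.0063 with median centring, -0.0024 with quantile normalization and -0.013 with array weights, and Slc4a1 was -0.0042 with median centring and -0.040 with array weights. The cause of these shifts was not tested. Most members lie near background, which limits their changes.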

Other observations

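The eosinophil granule genes Prg2 and Epx had positive AF changes beside the erythroid genes, while the median change of their list was 0.05. Prg2, the major basic protein, measured 11.59, 11.09, 11.86 and 8.79 in AF cKO, against 10.22, 7.24, 6.01 and 6.20 in AF CTR, a change of 3.42 (SE 0.77, adjusted p = 0.117). Epx, eosinophil peroxidase, changed by 2.44 (SE 0.63, adjusted p = 0.171). Of the 12 mast cell, basophil and eosinophil genes measured, 7 were higher and 5 lower, and 0 were called. Siglecf changed by -0.40 (SE 0.24, adjusted p = 0.563) and Kit by -0.29 (SE 0.33, adjusted p = 0.779). For Prg2 and Epx, AF CTR 1 was the highest control array. Proliferation genes had 13 of 14 positive changes with 0 called, and Mki67 measured 10.77, 11.33, 13.38 and 9.503 in AF cKO, against 11.23, 9.01, 8.85 and 8.29 in AF CTR (1.90, SE 0.69, adjusted p = 0.345).

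Some genes listed as erythroid were high in the disc itself. Slc2a1, the glucose transporter that red cells and NP cells both use, averaged 18.2 in AF cKO and 19.8 in NP cKO, and 18.7 in AF CTR and 19.8 in NP CTR, lower in AF by 1.60 (SE 0.33, adjusted p = 0.00197) and 1.16 (SE 0.33, adjusted p = 0.0176). Cd24a, an NP marker that erythroblasts also carry, was lower in AF by 1.07 (SE 0.24) in cKO mice and 1.66 (SE 0.24) in CTR mice.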
